A study of Mus musculus with 11 samples.

Results

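The keratin family was read in mouse gastric cancer tissue and normal gastric epithelium. Members were all probe sets whose single annotated gene symbol is Krt followed by a number and at most 1 letter, with 1 probe set kept per gene. This rule gave 52 keratin genes of 19938 genes on the array: 6 keratins of simple epithelia, 21 of stratified squamous epithelia, 9 of the hair root sheath, 13 of the hair shaft, and 3 that were left unclassed (Krt88, Krt90 and Krt222). Each of the 52 had a single probe set.

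Total RNA of 11 samples was hybridised to Affymetrix arrays, 1 array per sample. The pChePS_GC group held 4 samples of diffuse-type gastric cancer from untreated mice carrying the Pdx-1-Cre transgene, in which Trp53 and Smad4 were floxed on both alleles and Cdh1 on 1 of 2 (Cdh1F/+). The pCP_GC group held 3 samples of the same histology from untreated mice carrying Pdx-1-Cre with both alleles of Cdh1 and of Trp53 floxed. The NGE group held 4 samples of normal gastric epithelium from untreated mice without the transgene, which the labels write as Pdx1-1-Cre-negative. Pdx1 is a transcription factor of the pancreas, duodenum and distal stomach, so the transgene acts where its promoter is active. The labels give no strain, age or sex. Whether each sample is a mouse of its own is not stated, so the p-values cover variation among the samples, which may be technical. Levels are normalized log2 signals, on which a difference of 1 is a 2-fold change, and a signal of 1 probe set is not comparable with that of another.

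Keratins are the intermediate filament proteins of epithelial cells. A filament is built from pairs of an acidic type I and a basic type II keratin, and cell types differ in the pairs they make: Krt8 with Krt18 in simple epithelia such as the gastric glands, Krt5 with Krt14 in the basal layer of stratified epithelia, Krt4 with Krt13 in the wet squamous lining of the oesophagus and the rodent forestomach. In RefSeq (GRCm38.p6) 27 of the 28 type I members lie on mouse chromosome 11, all 24 type II members lie on chromosome 15, and Krt18 is the type I member that lies on chromosome 15, beside Krt8.

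The simple keratins were read well above background in all 3 groups, and 1 of them set both tumour groups apart from NGE. Krt7, a type II keratin of ducts and glands, urothelium and mesothelium, rose in both tumour groups. Krt18 rose by 0.41 in pChePS_GC (limma adjusted p = 0.0103), a call lost with arrays centred on their medians. Krt8 and Krt19 passed in neither group, other than as lower with such centring (Krt8 in both groups, Krt19 in pCP_GC). Krt4 rose in pChePS_GC with a wide spread between samples, a call lost under 12 alternatives. Of the 46 keratins outside the simple class, 13 fell in pChePS_GC (28.3%, against 23.4% of all genes) and 30 in pCP_GC (65.2%, against 31.8% of all genes), most of them by less than 2-fold. The pChePS_GC share is thus near that of all genes.

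The whole series bears on these values in several ways. Receptor genes of smell and pheromone sensing (1194 Olfr and Vmn genes), which most tissues do not express, had a 95th percentile of 6.99 in pChePS_GC, 6.86 in pCP_GC and 7.24 in NGE, which served as the level of dim probe sets and is called the receptor level here. Markers of gastric epithelium, the labelled tissue, were above that level for 12 of 12 genes in all 3 groups. Fibroblast markers averaged 10.61 to 11.48 per array in pChePS_GC and 10.59 to 11.52 in pCP_GC, against 7.57 to 7.85 in NGE, where Lum and Fap were not above the receptor level. The median difference of all genes was -0.10 in pChePS_GC and -0.12 in pCP_GC, and centring each array on its median moved these to -0.27 and -0.33. The sex-linked transcript Xist averaged 5.85 in pChePS_GC and 5.67 in pCP_GC, against 12.24 in NGE, and the Y-linked Eif2s3y averaged 10.27 in pChePS_GC and 9.31 in pCP_GC, against 5.08 in NGE. These transcripts followed the split of tumour and NGE on all 11 arrays, so sex and tumour cannot be told apart. In whole tissue, fewer epithelial cells and less keratin RNA per cell also cannot be told apart.

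The promoter windows of Krt7, which rose in both tumour groups, are shown beside those of Krt8 and Krt18, the filament pair of simple epithelium. They come from RefSeq (GRCm38.p6), run from 250 bases before to 50 after the annotated gene start and are written on the gene's own strand: chr15:101412153-101412452 (plus strand) for Krt7, chr15:102004293-102004592 (minus strand) for Krt8 and chr15:102027966-102028265 (plus strand) for Krt18. Capitals mark matches, on either strand, of the GC box GGGCGG in Krt7 and of the TATA box TATAAA in Krt8.
Krt7: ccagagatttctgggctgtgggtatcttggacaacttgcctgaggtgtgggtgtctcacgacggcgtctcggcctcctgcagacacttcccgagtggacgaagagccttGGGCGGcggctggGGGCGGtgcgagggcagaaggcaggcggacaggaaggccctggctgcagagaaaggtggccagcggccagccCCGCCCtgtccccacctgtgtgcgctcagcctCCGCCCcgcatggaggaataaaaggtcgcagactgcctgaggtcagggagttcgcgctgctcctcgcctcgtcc
Krt8: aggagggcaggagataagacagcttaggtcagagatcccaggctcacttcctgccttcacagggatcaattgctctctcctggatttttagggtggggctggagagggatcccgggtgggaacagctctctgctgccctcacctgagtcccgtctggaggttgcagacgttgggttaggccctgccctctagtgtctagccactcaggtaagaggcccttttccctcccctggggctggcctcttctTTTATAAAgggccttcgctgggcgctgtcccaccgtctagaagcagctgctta
Krt18: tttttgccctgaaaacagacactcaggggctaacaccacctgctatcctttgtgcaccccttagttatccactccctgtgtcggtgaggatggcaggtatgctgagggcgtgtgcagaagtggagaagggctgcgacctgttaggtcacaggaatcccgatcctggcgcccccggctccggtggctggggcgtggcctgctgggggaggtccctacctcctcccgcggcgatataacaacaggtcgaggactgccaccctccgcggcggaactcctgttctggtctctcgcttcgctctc
Besides these 2 motifs, the CCAAT box and the AP-1 motif TGANTCA were searched on both strands. The Krt7 window held 4 matches of the GC box and 0 of the others. In the Krt8 window there were 2 matches of TATAAA, 1 on each strand and overlapping in the same stretch. They begin at offsets -3 and -1 from the annotated gene start. In the Krt18 window there was no match of the 4 motifs. Of 32851 windows of this length, 35.7% held GGGCGG, 13.6% TATAAA, 37.4% CCAAT and 7.81% TGANTCA. A match describes letters in these windows, and windows were available for 36 of the 52 keratins.

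Krt7 read 12.98, 13.22, 12.56 and 13.06 in pChePS_GC and 13.01, 12.20 and 12.84 in pCP_GC, against 11.63, 9.35, 9.82 and 10.64 in NGE. Every tumour array lay above every NGE array, and the NGE arrays were the more spread, with NGE replicate 1 the highest. The mean was 12.95 ± 0.28 (SD, n = 4) in pChePS_GC and 12.68 ± 0.43 (SD, n = 3) in pCP_GC, against 10.36 ± 1.00 (SD, n = 4) in NGE. In pChePS_GC Krt7 rose by 2.59 on the log2 scale, 6.04-fold (SE 0.41, 95% interval 1.68 to 3.50, limma adjusted p = 0.000742). In pCP_GC it rose by 2.32, 5.01-fold (SE 0.45, 95% interval 1.34 to 3.31, limma adjusted p = 0.00193). Both comparisons share the NGE arrays. Between the tumour groups the difference was 0.27 (95% interval -0.71 to 1.25, limma adjusted p = 0.784).

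Krt8, the type II member of the main simple pair, read 13.93, 14.01, 13.89 and 13.87 in pChePS_GC and 14.05, 13.69 and 13.96 in pCP_GC, against 14.08, 14.01, 14.02 and 14.09 in NGE. The groups overlapped within a narrow range near the top of the scale, where the brightest gene on an array read 14.20 to 14.33, so a change could be compressed there. The difference from NGE was -0.12 in pChePS_GC (95% interval -0.32 to 0.07, limma adjusted p = 0.268) and -0.15 in pCP_GC (95% interval -0.36 to 0.06, limma adjusted p = 0.209). After centring of the arrays on their medians, Krt8 passed as lower in both groups (-0.30 in pChePS_GC, limma adjusted p = 0.0333, and -0.36 in pCP_GC, limma adjusted p = 0.0183). With quantile normalization its differences turned positive and did not pass (0.15 in pChePS_GC, limma adjusted p = 0.138, and 0.08 in pCP_GC, limma adjusted p = 0.452), so its direction depends on the scaling.

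Krt18, the type I partner of Krt8, read 13.50, 13.62, 13.66 and 13.58 in pChePS_GC and 13.55, 13.06 and 13.38 in pCP_GC, against 13.25, 13.09, 13.13 and 13.23 in NGE. All 4 pChePS_GC arrays lay above the NGE arrays, while pCP_GC overlapped NGE through its replicate 2. Krt18 rose by 0.41 in pChePS_GC, 1.33-fold (SE 0.10, limma adjusted p = 0.0103). Its difference in pCP_GC was 0.15 (SE 0.11, 95% interval -0.09 to 0.40, limma adjusted p = 0.271), a difference that passed without pCP_GC replicate 2 (0.29, limma adjusted p = 0.0378). The pChePS_GC call was lost when arrays were centred (0.24, limma adjusted p = 0.106), where the pCP_GC difference was -0.06 (limma adjusted p = 0.7). Krt18, Krt20 and Krt23 were picked for their own values after these had been seen, to complete the simple class.

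Krt19, a type I keratin of ducts and glands, read 13.42, 13.61, 13.19 and 13.47 in pChePS_GC and 13.55, 13.01 and 13.47 in pCP_GC, against 13.63, 13.50, 13.50 and 13.57 in NGE. The groups overlapped. Its difference was -0.13 in pChePS_GC (95% interval -0.41 to 0.15, limma adjusted p = 0.421) and -0.21 in pCP_GC (95% interval -0.51 to 0.10, limma adjusted p = 0.225). With arrays centred on their medians it passed as lower in pCP_GC (-0.42, limma adjusted p = 0.0361).

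Krt20, a keratin of intestinal and of gastric surface cells, read 12.79, 12.40, 11.23 and 10.55 in pChePS_GC and 12.78, 11.57 and 12.04 in pCP_GC, against 12.27, 11.74, 11.99 and 12.05 in NGE. The pChePS_GC arrays spread to both sides of NGE, replicates 1 and 2 above it and replicates 3 and 4 below. The SD was 1.03 in pChePS_GC and 0.61 in pCP_GC, against 0.22 in NGE. The mean differences were -0.27 (95% interval -1.24 to 0.69, limma adjusted p = 0.626) in pChePS_GC and 0.12 (95% interval -0.93 to 1.16, limma adjusted p = 0.848) in pCP_GC. The sign of both turned when single arrays were left out, to 0.12 in pChePS_GC without its replicate 4 and to -0.21 in pCP_GC without its replicate 1. The type I keratin Krt23 averaged 10.86 ± 0.51 (SD, n = 4) in pChePS_GC and 10.98 ± 0.24 (SD, n = 3) in pCP_GC, against 11.25 ± 0.16 (SD, n = 4) in NGE, and passed in neither comparison (-0.39 in pChePS_GC, limma adjusted p = 0.172, and -0.27 in pCP_GC, limma adjusted p = 0.363). It passed as lower in pChePS_GC without pChePS_GC replicate 3 (-0.62, limma adjusted p = 0.0103) and with array weights (-0.54, limma adjusted p = 0.0334).

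**Figure D1:**
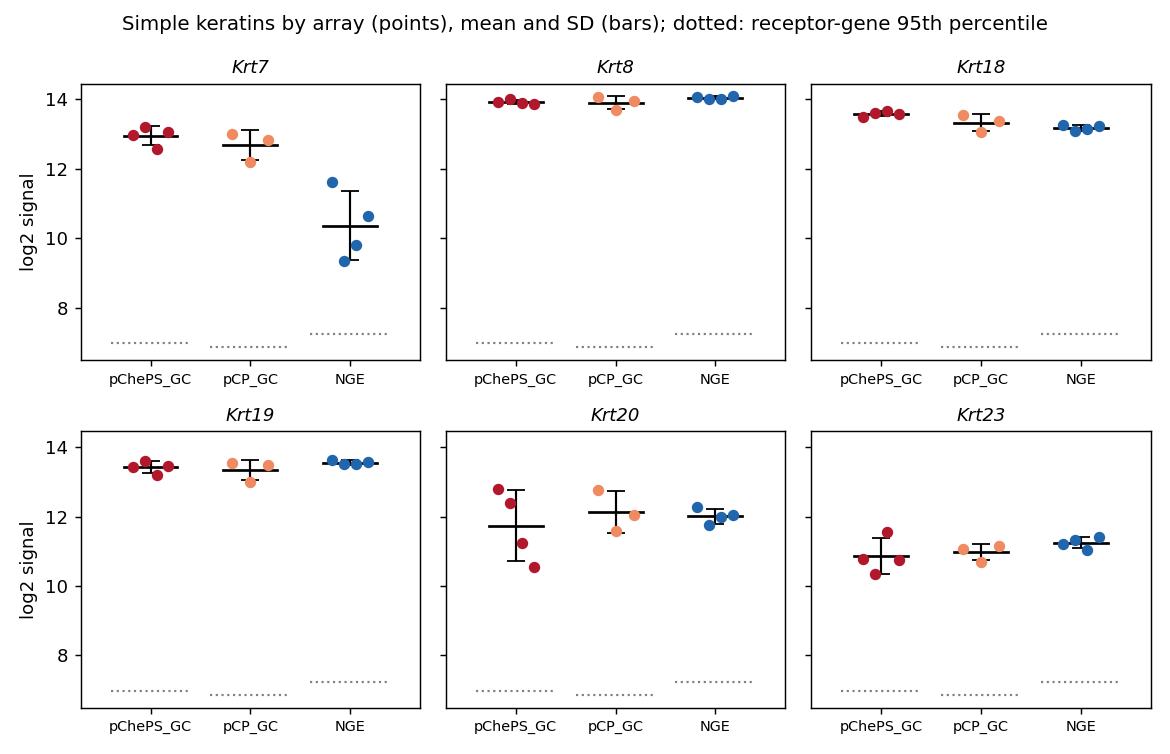
Normalized log2 signal of the 6 simple keratins, with 1 point per array, the group mean as a line and the SD as bars, for pChePS_GC (n = 4), pCP_GC (n = 3) and NGE (n = 4); dotted lines are the 95th percentile of receptor genes in each group. The Krt7 points of both tumour groups lie at 12.20 or higher, above the highest NGE array at 11.63, while Krt8 and Krt19 overlap between groups and Krt20 spreads from 10.55 to 12.79 in pChePS_GC.

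Across the family, 3 keratins rose and 13 fell in pChePS_GC against NGE at a limma adjusted p under 0.05, and 36 did not pass. Over all 19938 genes 42.1% passed in this comparison, 18.7% higher and 23.4% lower. Centring the arrays on their medians gave a keratin split of 2 higher and 37 lower. In pCP_GC against NGE 1 keratin rose, 30 fell and 21 did not pass, where 51.8% of all genes passed, 20% higher and 31.8% lower. Changes that passed with at least 2-fold were few: Krt7 and Krt4 rose and Krt79 fell in pChePS_GC (10.3% of all genes, 6.98% higher and 3.34% lower), and Krt7 rose and Krt78 fell in pCP_GC (11% of all genes, 8.13% higher and 2.83% lower). All pChePS_GC arrays lay above all NGE arrays for 2 keratins and below them for 18 (17.7% and 22.9% of all genes). All pCP_GC arrays lay above NGE for 2 keratins and below for 31 (24% and 35.6% of all genes).

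By class, 2 of the 6 simple keratins rose in pChePS_GC (Krt7 and Krt18, 33.3%, against 18.7% of all genes). In pCP_GC 1 of 6 rose (Krt7, 16.7%, against 20% of all genes). In either group 0 simple keratins fell by limma, and 0 were lower at an unadjusted p under 0.05. Of the 21 squamous keratins, 1 rose and 6 fell in pChePS_GC (4.76% and 28.6%, against 18.7% and 23.4% of all genes). In pCP_GC 10 of them fell (47.6%, against 31.8% of all genes). Among the 22 hair keratins 6 fell in pChePS_GC (27.3%), 3 of the root sheath and 3 of the shaft. The squamous and hair shares that fell in pChePS_GC are thus near that of all genes. In pCP_GC 18 of the 22 hair keratins fell (81.8%, against 31.8% of all genes), 8 of the 9 root sheath and 10 of the 13 shaft members. The unclassed Krt88 fell in both (-0.39, limma adjusted p = 0.0358 in pChePS_GC and -0.76, limma adjusted p = 0.00172 in pCP_GC), and its pChePS_GC call was lost without each of 3 NGE and 3 pChePS_GC arrays (limma adjusted p up to 0.1). Krt222, not above the receptor level in any group, was called lower in pCP_GC.

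The falls of the 46 keratins outside the simple class were mostly small. Their median difference was -0.29 in pChePS_GC and -0.45 in pCP_GC, against -0.10 and -0.12 for all genes and -0.15 and -0.22 for the receptor genes. With arrays centred on their medians it was -0.46 in pChePS_GC and -0.67 in pCP_GC, against -0.27 and -0.33 for all genes, and with quantile normalization it was -0.27 and -0.32, against -0.07 and -0.08 for all genes. Of the 13 that fell in pChePS_GC 8 were above the receptor level in NGE, and of the 30 that fell in pCP_GC 16 were. The receptor genes themselves were called lower for 17.8% in pChePS_GC and 35.5% in pCP_GC. The keratin-associated protein genes, a separate family of hair shaft proteins, fell for 21 of 44 members in pChePS_GC (47.7%, median -0.28). They fell for 34 of 44 in pCP_GC (77.3%, median -0.40). Of all genes, 23.4% fell in pChePS_GC and 31.8% in pCP_GC. Lower signals in the tumour arrays were thus also found in gene families of hair and olfaction at dim levels, and what part of the keratin falls they share was not tested.

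**Figure D2:**
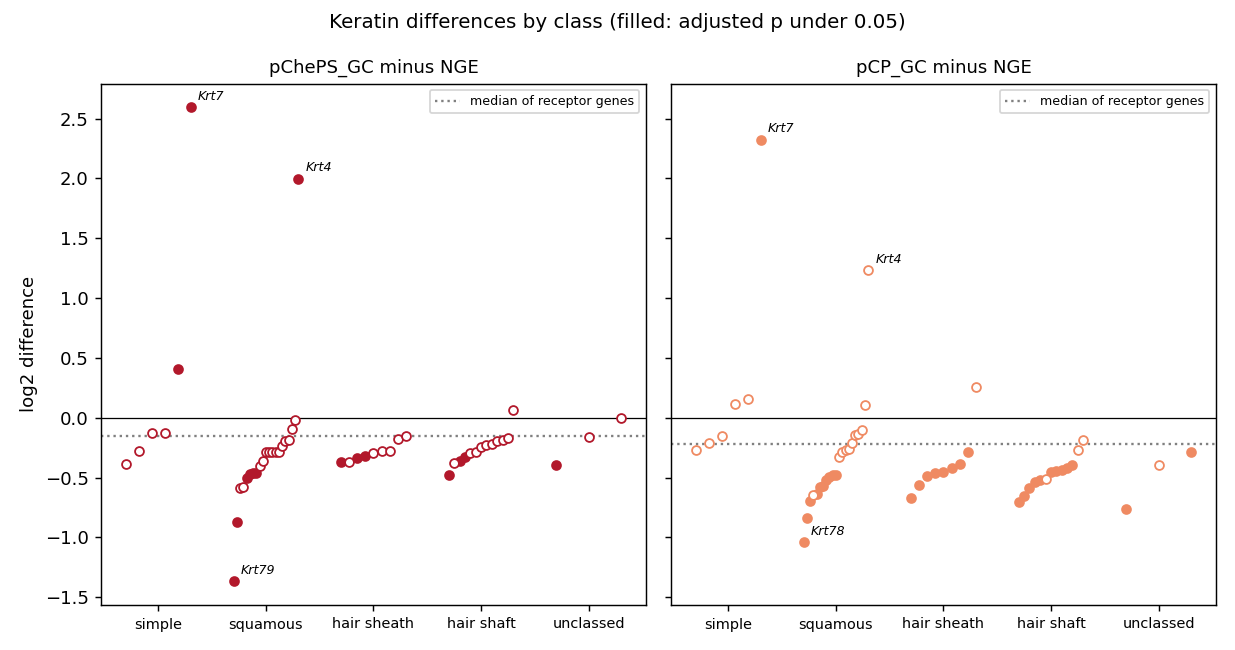
Log2 difference from NGE of each of the 52 keratins, by class, in pChePS_GC (left) and pCP_GC (right); each point is 1 gene, filled points passed at an adjusted p under 0.05, and the dotted line is the median of receptor genes. Krt7 stands at 2.59 and 2.32 and Krt4 at the fitted 2.00 and 1.24, while the hair keratins lie between -0.48 and 0.06 in pChePS_GC and between -0.70 and 0.26 in pCP_GC.

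Single arrays set part of these counts. Of the 46 keratins outside the simple class, pCP_GC replicate 2 was the lowest of its group for 42 and NGE replicate 2 the lowest of its group for 41. The median signal of these keratins was 6.74 in pCP_GC replicate 2, against 7.10 and 7.19 in the other pCP_GC arrays, and it was 7.23 in NGE replicate 2, against 7.47 to 7.58 in the other NGE arrays. The count of keratins that fell in pChePS_GC was 22 without NGE replicate 2 and 21 without pCP_GC replicate 2, and it was 7 without NGE replicate 1, 5 without NGE replicate 3, 7 without NGE replicate 4 and 6 without pChePS_GC replicate 2. The count in pCP_GC stayed between 25 and 33 when each array was left out in turn.

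Among the squamous keratins, Krt4 read 10.34, 11.15, 8.29 and 6.92 in pChePS_GC and 8.80, 8.30 and 8.15 in pCP_GC, against 7.25, 7.03, 7.31 and 7.12 in NGE. Replicates 1 and 2 of pChePS_GC were far above NGE, replicate 3 was moderately above and replicate 4 was below it, whereas all 3 pCP_GC arrays lay above all NGE arrays. In NGE the mean of Krt4 was 7.18, not above the receptor level, so its change is given as a lower bound, with each NGE array set at the higher of its own signal and the receptor level. Here and for the genes below, such a bound allows for the dim NGE level and not for the spread between samples. An adjusted p given beside a bound is that of the fitted difference and does not test the bound. In this sense the mean of Krt4 was at least 3.77-fold higher in pChePS_GC. Its fitted difference there was 2.00 (SE 0.73, 95% interval 0.39 to 3.61, limma adjusted p = 0.0472). This call rests on single arrays. Without pChePS_GC replicate 2 the difference was 1.34 (limma adjusted p = 0.114) and without replicate 1 it was 1.61 (limma adjusted p = 0.111). The call was also lost on leaving out any NGE or any pCP_GC array, with only pChePS_GC and NGE fitted (limma adjusted p = 0.0724) and with a variance prior that follows the signal (limma adjusted p = 0.0539), and over the alternatives the adjusted p ran from 0.00299 to 0.114. In pCP_GC the difference of 1.24 (95% interval -0.50 to 2.97, limma adjusted p = 0.207) did not pass in the model of all 3 groups, which shares their spread, and passed with only pCP_GC and NGE fitted (limma adjusted p = 0.00047) and with array weights (limma adjusted p = 0.0436). Between the tumour groups Krt4 differed by 0.76 (95% interval -0.97 to 2.50, limma adjusted p = 0.641).

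Krt13, the type I partner of Krt4 in wet squamous epithelium, gave negative differences. It read 7.22, 7.60, 7.24 and 7.59 in pChePS_GC and 8.07, 7.35 and 7.78 in pCP_GC, against 8.64, 7.77, 7.76 and 7.83 in NGE. The pChePS_GC arrays all lay below the NGE arrays, and pCP_GC overlapped NGE. Its difference was -0.59 in pChePS_GC (95% interval -1.07 to -0.11, limma adjusted p = 0.0501) and -0.27 in pCP_GC (95% interval -0.79 to 0.25, limma adjusted p = 0.355). The pChePS_GC difference lay at the threshold: it passed under 8 alternatives, among them centring (-0.76, limma adjusted p = 0.0135) and quantile normalization (-0.67, limma adjusted p = 0.0401), and was -0.37 without NGE replicate 1 (limma adjusted p = 0.114). The basal pair averaged above the receptor level (6.99 in pChePS_GC, 6.86 in pCP_GC and 7.24 in NGE). Krt14 lay close to that level in pChePS_GC and NGE, and read 6.92 on pCP_GC replicate 2. Krt5 averaged 7.67 ± 0.25 (SD, n = 4) in pChePS_GC and 7.43 ± 0.45 (SD, n = 3) in pCP_GC, against 8.07 ± 0.52 (SD, n = 4) in NGE. Krt14 averaged 7.34 ± 0.16 (SD, n = 4) in pChePS_GC and 7.74 ± 0.89 (SD, n = 3) in pCP_GC, against 7.63 ± 0.29 (SD, n = 4) in NGE. Neither gene of the basal pair passed in either comparison (limma adjusted p from 0.0793 to 0.792). Krt5 passed as lower in pCP_GC with centring (-0.85, limma adjusted p = 0.0235), without NGE replicate 2 (-0.81, limma adjusted p = 0.0363) and without pCP_GC replicate 1 (-0.85, limma adjusted p = 0.0452). NGE replicate 1 was the highest NGE array for Krt5, Krt13 and Krt14, at 8.78, 8.64 and 8.06, and for 13 of the 21 squamous keratins. Krt13, Krt5 and Krt14 were picked after their values had been seen.

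Krt78, a type II keratin of stratified epithelia, read 7.30, 7.12, 7.17 and 7.38 in pChePS_GC and 7.37, 6.74 and 7.12 in pCP_GC, against 8.30, 7.90, 8.23 and 8.04 in NGE. All tumour arrays lay below all NGE arrays. In pChePS_GC it fell by 0.87 (SE 0.14, limma adjusted p = 0.000782). In pCP_GC it fell by 1.04 (SE 0.15, limma adjusted p = 0.000438). Its means of 7.24 in pChePS_GC and 7.08 in pCP_GC lay close to the receptor level (6.99 and 6.86). The size of a fall could be compressed there.

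Krt79, known from the upper hair follicle and the sebaceous duct in mouse skin, read 8.96, 8.58, 7.51 and 7.95 in pChePS_GC and 10.04, 8.11 and 10.25 in pCP_GC, against 10.17, 9.23, 9.38 and 9.67 in NGE. The pChePS_GC arrays all lay below the NGE arrays, while pCP_GC held arrays above and below them, replicate 2 being the low one. Krt79 fell by 1.36 in pChePS_GC (SE 0.46, limma adjusted p = 0.0364, range over the alternatives 0.00654 to 0.097), and the call was lost without NGE replicate 1 (-1.18, limma adjusted p = 0.097) and without each of NGE replicates 3 and 4 and pChePS_GC replicates 2, 3 and 4. In pCP_GC its difference was -0.15 (95% interval -1.25 to 0.96, limma adjusted p = 0.821), and it turned to 0.53 without pCP_GC replicate 2 (limma adjusted p = 0.273). The tumour groups differed by -1.22 (95% interval -2.32 to -0.12, limma adjusted p = 0.265). Krt80, a keratin of differentiating epithelia, read 9.27, 9.41, 8.78 and 8.87 in pChePS_GC and 9.38, 8.89 and 9.55 in pCP_GC, against 9.66, 9.02, 9.20 and 9.60 in NGE, with overlapping groups and no call (limma adjusted p = 0.261 and 0.724).

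**Figure D3:**
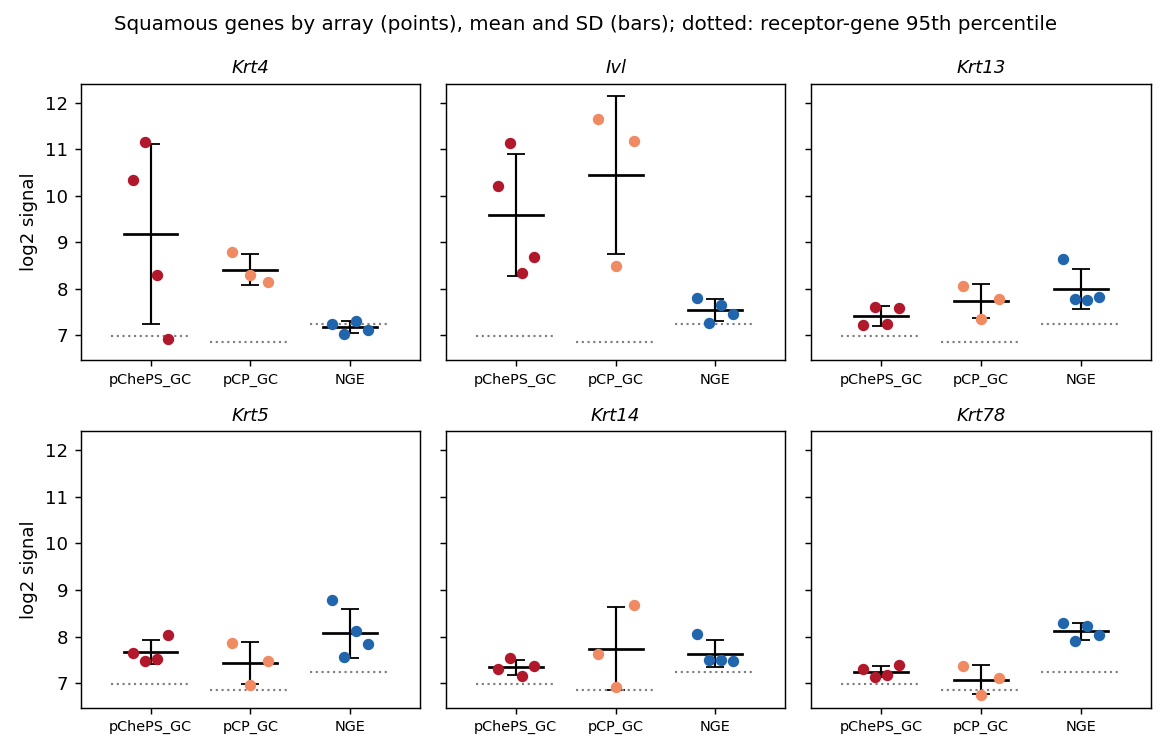
Normalized log2 signal of Krt4, involucrin (Ivl), Krt13, Krt5, Krt14 and Krt78, with 1 point per array, the group mean as a line and the SD as bars, for pChePS_GC (n = 4), pCP_GC (n = 3) and NGE (n = 4); dotted lines are the 95th percentile of receptor genes. Krt4 reaches 11.15 and Ivl 11.65 on single tumour arrays, while Krt13, Krt5 and Krt14 stay at or under 8.78 on all 11 arrays and Krt78 is lower on every tumour array.

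Among the 22 hair keratins, 14 were above the receptor level in at least 1 group, and 0 of the 22 changed by 2-fold or more in either comparison. Krt33b, a type I keratin of the hair cortex, read 9.08, 8.86, 8.99 and 9.05 in pChePS_GC and 8.96, 8.60 and 8.97 in pCP_GC, against 9.32, 9.06, 9.36 and 9.40 in NGE. It fell by 0.44 in pCP_GC, where the groups did not overlap (SE 0.12, limma adjusted p = 0.0109), and its difference in pChePS_GC was -0.29 (limma adjusted p = 0.0553). That difference passed under 7 alternatives, among them quantile normalization (-0.51, limma adjusted p = 0.0107) and array weights (-0.37, limma adjusted p = 0.00995). Krt87, a type II hair keratin, read 8.26, 8.21, 8.58 and 8.98 in pChePS_GC and 8.59, 8.02 and 8.52 in pCP_GC, against 8.91, 8.59, 9.03 and 9.02 in NGE. Krt87 overlapped NGE in both tumour groups and did not pass (-0.38 in pChePS_GC and -0.52 in pCP_GC, limma adjusted p = 0.125 and 0.0553). It passed as lower under 5 alternatives in pChePS_GC, such as quantile normalization (-0.61, limma adjusted p = 0.0261), and under 7 in pCP_GC, such as centring (-0.73, limma adjusted p = 0.0112) and the fit of pCP_GC and NGE alone (limma adjusted p = 0.029).

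Of the root sheath keratins, Krt75, found in the companion layer of the follicle, read 7.51, 7.66, 7.69 and 7.78 in pChePS_GC and 9.48, 7.48 and 7.89 in pCP_GC, against 8.15, 7.86, 8.03 and 8.06 in NGE. The array of pCP_GC replicate 1 stood above the others, and Krt75 did not pass in either comparison (-0.37 in pChePS_GC and 0.26 in pCP_GC, limma adjusted p = 0.382 and 0.568). Without that array the pCP_GC difference turned to -0.34 (limma adjusted p = 0.0688). In pChePS_GC, where all arrays lay below NGE, Krt75 passed as lower without that array (limma adjusted p = 0.0292) and with only pChePS_GC and NGE fitted (limma adjusted p = 0.016). Krt71, of the inner root sheath, read 7.40, 7.50, 7.47 and 7.51 in pChePS_GC and 7.48, 7.10 and 7.50 in pCP_GC, against 7.64, 7.56, 7.70 and 7.68 in NGE. Tumour arrays of both groups lay below all NGE arrays for Krt71, by small amounts: it fell by 0.29 in pCP_GC (SE 0.10, limma adjusted p = 0.0397), and its difference in pChePS_GC was -0.18 (SE 0.10, limma adjusted p = 0.154). The pCP_GC call was lost without pCP_GC replicate 2 (-0.15, limma adjusted p = 0.164), with quantile normalization (-0.21, limma adjusted p = 0.0833), with only the 2 groups fitted (limma adjusted p = 0.0644), with the replicate block (-0.27, limma adjusted p = 0.0653) and without each of NGE replicates 1, 3 and 4 and pChePS_GC replicate 2.

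Between the tumour groups, pChePS_GC against pCP_GC, 0 of 52 keratins passed by limma, where 0.366% of all genes did. The smallest adjusted p was 0.187. At an unadjusted p under 0.05 there were 11 keratins, 10 of them higher in pChePS_GC, and 16.5% of all genes. The median difference of the 46 keratins outside the simple class was 0.18, against 0.04 for all genes and 0.07 for the receptor genes. For 10 of the 52 members the pChePS_GC arrays lay entirely above the pCP_GC arrays and for 0 entirely below, where 9.5% and 4.4% of all genes did, and pCP_GC replicate 2 was the lowest of its group for most of the family, as given above.

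Genes of the wider epithelial filament system were read from lists of named genes, whose counts stand against the 18.7% of all genes that rose and 23.4% that fell in pChePS_GC and the 20% that rose and 31.8% that fell in pCP_GC. Keratin filaments are tied to cell contacts by desmosomes, in which desmosomal cadherins (Dsg, Dsc) bind plakoglobin (Jup), plakophilins and desmoplakin (Dsp). Of 16 desmosome and plakin genes, 2 rose (12.5%) and 8 fell (50%) in pChePS_GC, and the same numbers rose and fell in pCP_GC. Dsp, the anchor of keratin filaments, averaged 11.51 ± 0.21 (SD, n = 4) in pChePS_GC and 11.83 ± 0.09 (SD, n = 3) in pCP_GC, against 12.63 ± 0.08 (SD, n = 4) in NGE. It fell by 1.12 in pChePS_GC and fell by 0.80 in pCP_GC (limma adjusted p = 2.35e-05 and 0.000379). Dsc2, a desmosomal cadherin, fell by 1.18 in pChePS_GC and fell by 1.01 in pCP_GC (limma adjusted p = 0.0054 and 0.0129), and the pCP_GC call was lost without pCP_GC replicate 2 (-0.74, limma adjusted p = 0.0595). Plakins of the cornified layer moved apart: Ppl (periplakin) rose by 1.38 in pChePS_GC and by 1.10 in pCP_GC (limma adjusted p = 0.000759 and 0.00357), whereas Evpl (envoplakin) fell by 0.90 in pChePS_GC and fell by 1.02 in pCP_GC (limma adjusted p = 0.000439 and 0.000339). Among 8 hemidesmosome genes, which fix keratins to the basement membrane, 2 rose and 1 fell in pChePS_GC (25% and 12.5%) and 1 rose and 3 fell in pCP_GC (12.5% and 37.5%), which is not far from all genes in a list of this size. The laminin chain gene Lama3 rose by 0.74 in pChePS_GC and 0.73 in pCP_GC (limma adjusted p = 0.0267 and 0.0324), calls that were lost with quantile normalization (limma adjusted p = 0.135 and 0.228), with centring (limma adjusted p = 0.0628 and 0.11) and without several single arrays.

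Of 18 cornified envelope genes, 3 rose (16.7%, against 18.7% of all genes) and 6 fell (33.3%, against 23.4%) in pChePS_GC, and 1 rose (5.56%, against 20%) and 10 fell (55.6%, against 31.8%) in pCP_GC. Ivl (involucrin), a scaffold of the cornified envelope, read 10.21, 11.13, 8.34 and 8.68 in pChePS_GC and 11.65, 8.50 and 11.17 in pCP_GC, against 7.81, 7.26, 7.64 and 7.46 in NGE. Every tumour array lay above every NGE array, with a wide spread within both tumour groups. Ivl rose by 2.05 in pChePS_GC (SE 0.72, limma adjusted p = 0.041, range over the alternatives 0.00699 to 0.11) and by 2.90 in pCP_GC (SE 0.78, limma adjusted p = 0.0101). Its pChePS_GC call was lost without pChePS_GC replicate 2 (1.53, limma adjusted p = 0.11), without pChePS_GC replicate 1 and without each NGE array. Tgm1, a transglutaminase that cross-links the envelope, rose by 1.44 in pChePS_GC (limma adjusted p = 0.00516), and Dmkn (dermokine) rose by 1.58 there (limma adjusted p = 0.0185). The small proline-rich protein gene Sprr2d fell by 0.62 in pChePS_GC and fell by 0.74 in pCP_GC (limma adjusted p = 0.00551 and 0.00257).

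Of 14 transcription factors of squamous epithelium, 2 rose and 6 fell in pChePS_GC (14.3% and 42.9%, against 18.7% and 23.4% of all genes), and 2 rose and 5 fell in pCP_GC (14.3% and 35.7%, against 20% and 31.8%). Trp63, the regulator of stratified epithelium, averaged 7.34 ± 0.11 (SD, n = 4) in pChePS_GC and 7.29 ± 0.16 (SD, n = 3) in pCP_GC, against 7.66 ± 0.07 (SD, n = 4) in NGE, all close to the receptor level. It fell by 0.31 in pChePS_GC and fell by 0.37 in pCP_GC (limma adjusted p = 0.0212 and 0.0105), and its pChePS_GC call was lost without NGE replicate 1 (limma adjusted p = 0.0583) and without pChePS_GC replicate 1 (limma adjusted p = 0.0539). Pax9, a factor of the oesophagus and forestomach, rose by 2.12 in pChePS_GC (limma adjusted p = 0.00589) and by 2.60 in pCP_GC (limma adjusted p = 0.00231), and every tumour array lay above every NGE array. Klf4, a factor of differentiating epithelium, fell by 1.98 in pChePS_GC and fell by 1.62 in pCP_GC (limma adjusted p = 2.22e-05 and 0.000167). Grhl1 fell by 1.57 in pChePS_GC and fell by 1.05 in pCP_GC (limma adjusted p = 9.72e-06 and 0.000262). Ovol1 fell by 0.87 in pChePS_GC and fell by 1.17 in pCP_GC (limma adjusted p = 0.00476 and 0.00124).

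The other epithelial genes set the simple keratins in context. Cdh1 (E-cadherin), floxed in both tumour groups, read 9.76, 11.07, 8.81 and 8.73 in pChePS_GC and 12.02, 11.06 and 10.52 in pCP_GC, against 12.95, 12.94, 13.02 and 13.02 in NGE. All tumour arrays lay below all NGE arrays. Cdh1 fell by 3.39 in pChePS_GC (limma adjusted p = 0.000315). In pCP_GC it fell by 1.78 (limma adjusted p = 0.0137), and leaving out replicate 3 of that group ended the call (-1.45, limma adjusted p = 0.0585). Epcam, an epithelial surface protein, rose by 0.55 in pChePS_GC and by 0.76 in pCP_GC (limma adjusted p = 0.00668 and 0.00146). Cldn7 and Cldn4, tight junction claudins named for their large changes, rose more. Cldn7 rose by 3.57 in pChePS_GC and 3.40 in pCP_GC (limma adjusted p = 7.73e-07 and 2.6e-06). Cldn4 rose by 3.25 in pChePS_GC and 2.36 in pCP_GC (limma adjusted p = 1.01e-05 and 0.000167). Cldn18, a claudin of the gastric list below, passed as higher in neither group. Of 14 general epithelial genes, 6 rose and 4 fell in pChePS_GC (42.9% and 28.6%, against 18.7% and 23.4% of all genes), and 5 rose and 3 fell in pCP_GC (35.7% and 21.4%, against 20% and 31.8%). Of 12 gastric epithelium genes 0 rose in either group by limma, against 18.7% and 20% of all genes. In pChePS_GC 10 of them fell (83.3%, against 23.4% of all genes), and in pCP_GC 3 fell (25%, against 31.8%). The count for pCP_GC understates its lower signals. All arrays lay below all NGE arrays for 11 of the 12 genes in pChePS_GC and 9 in pCP_GC (22.9% and 35.6% of all genes). For 1 gene all pCP_GC arrays lay above NGE. The median difference of the 12 was -2.16 in pChePS_GC and -0.61 in pCP_GC. The parietal cell proton pump gene Atp4b fell by 6.14 in pChePS_GC and fell by 5.52 in pCP_GC (limma adjusted p = 5.84e-05 and 0.000231).

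Of 15 intermediate filament genes outside the keratins, 5 rose and 3 fell in pChePS_GC (33.3% and 20%, against 18.7% and 23.4% of all genes) and 4 rose and 4 fell in pCP_GC (26.7% each, against 20% and 31.8%), shares not far from those of all genes. Vim (vimentin), the filament of mesenchymal cells, read 12.60, 12.99, 13.62 and 12.92 in pChePS_GC and 12.46, 13.38 and 12.79 in pCP_GC, against 9.16, 9.31, 8.91 and 8.77 in NGE. The groups were far apart, with no tumour array under 12.46. Vim rose by 3.99 in pChePS_GC, 15.9-fold (limma adjusted p = 1.37e-06), and by 3.84 in pCP_GC, 14.3-fold (limma adjusted p = 4.23e-06). Des (desmin), of muscle, and Nes (nestin) were not above the receptor level in NGE, so their rises are lower bounds. Des was at least 11.9-fold higher in pChePS_GC and at least 9.5-fold higher in pCP_GC (limma adjusted p = 0.00226 and 0.00439). Nes was at least 1.76-fold higher in pChePS_GC and at least 2.31-fold higher in pCP_GC (limma adjusted p = 0.00176 and 0.000427).

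**Figure D4:**
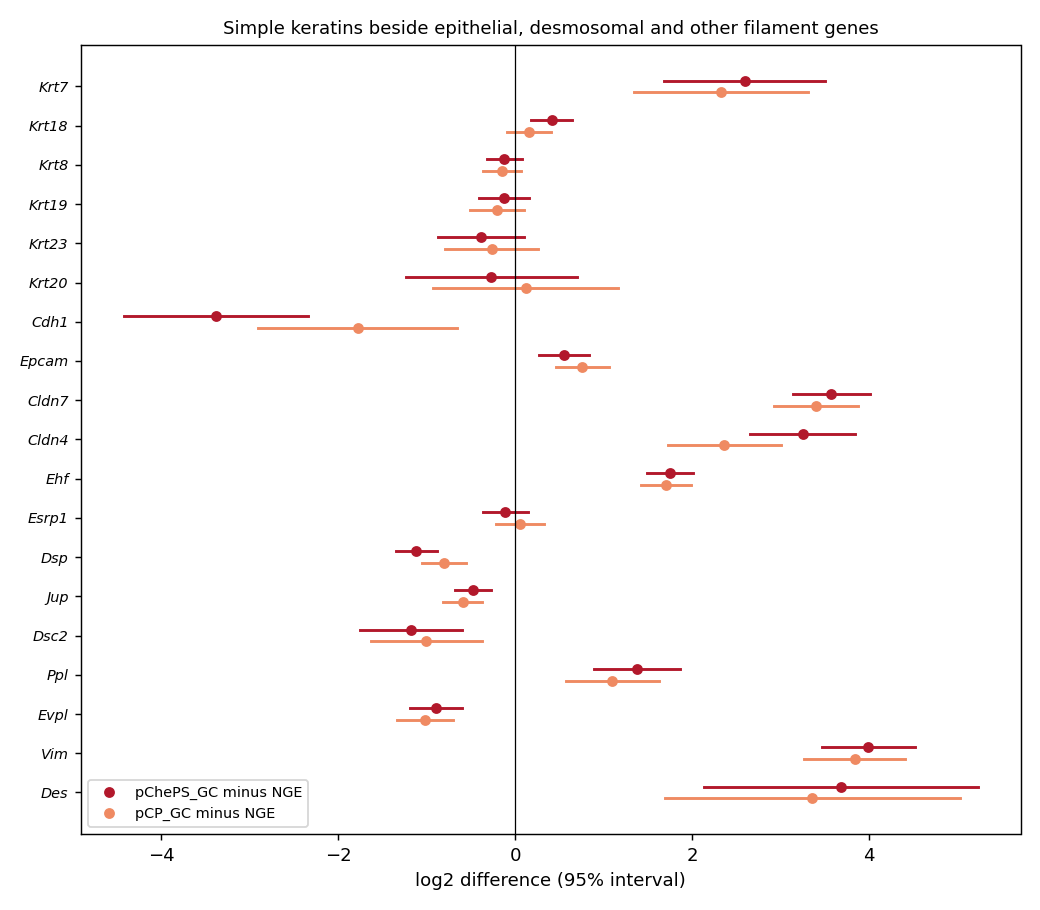
Log2 difference from NGE with its 95% interval for the 6 simple keratins and for epithelial, desmosomal and other filament genes, in pChePS_GC (dark red, upper of each pair) and pCP_GC (orange, lower of each pair). Krt7 lies at 2.59 and 2.32, on the side of the claudins Cldn7 and Cldn4 and of Vim, while the intervals of Krt8, Krt19, Krt20 and Krt23 include 0 and Cdh1, Dsp, Jup, Dsc2 and Evpl lie below it.

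Markers of other cell types moved with the tumours. Of all genes, 18.7% rose in pChePS_GC and 20% in pCP_GC. Fibroblast genes rose for 9 of 9 in pChePS_GC and 8 of 9 in pCP_GC, with Dcn (decorin) up by 4.56 in pChePS_GC and 5.14 in pCP_GC (limma adjusted p = 2.34e-06 and 2.6e-06). Leukocyte genes rose for 6 of 8 in both groups, led by the myeloid lysozyme gene Lyz2 with 4.65 in pChePS_GC and 4.85 in pCP_GC (limma adjusted p = 2.45e-07 and 4.71e-07). Endothelial genes rose for 6 of 6 in both, with Emcn (endomucin), not above the receptor level in NGE, at least 9.79-fold higher in pChePS_GC and at least 10.1-fold higher in pCP_GC (limma adjusted p = 1.29e-06 and 2.6e-06). Smooth muscle genes rose for 6 of 6 in both, with Acta2 up by 4.04 in pChePS_GC and 4.30 in pCP_GC (limma adjusted p = 1.93e-06 and 3.29e-06). Smooth muscle markers averaged 9.32 to 12.00 per array in pChePS_GC and 10.71 to 11.72 in pCP_GC, against 7.96 to 8.07 in NGE, with Des alone of the list at or under the receptor level in NGE. The part of these cell types in the keratin differences was not tested.

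Mesothelium, another cell type that makes Krt7, was read with 6 markers. Msln (mesothelin) averaged 12.59 ± 0.64 (SD, n = 4) in pChePS_GC and 12.33 ± 0.51 (SD, n = 3) in pCP_GC, against 7.79 ± 0.16 (SD, n = 4) in NGE, and rose by 4.80 in pChePS_GC and 4.54 in pCP_GC (limma adjusted p = 1.58e-06 and 5.11e-06). Upk1b, not above the receptor level in NGE, was at least 2.77-fold higher in pCP_GC (limma adjusted p = 0.016), a call lost without pCP_GC replicate 2 (limma adjusted p = 0.0732). Bnc1 was not above the receptor level in any group, so no change is given for it. The mesothelial genes Wt1 and Upk3b averaged 8.27 and 8.04 in pChePS_GC and 7.68 and 7.25 in pCP_GC, against 8.08 and 7.47 in NGE, and Lrrn4 averaged 6.97 in pChePS_GC and 7.03 in pCP_GC, against 7.11 in NGE. Wt1 fell by 0.39 in pCP_GC (limma adjusted p = 0.016), and in pChePS_GC none of these 3 passed (limma adjusted p from 0.166 to 0.315). The 6 markers averaged 8.21 to 8.61 per array in pChePS_GC and 7.95 to 8.59 in pCP_GC, against 7.18 to 7.55 in NGE. This average includes the large rise of Msln, while the median difference of the 6 was 0.38 in pChePS_GC and -0.15 in pCP_GC.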

How the data were processed

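Total RNA was extracted with an AllPrep kit and labelled with biotin, per the labels' protocols. Each array came with deposited log2 signals, 1 per probe set and already normalized; their range of 2.88 to 14.56 is the basis for the unit. The submitters' processing notes list Affymetrix Expression Console, and which version and algorithm they ran is not given in the sources used here. Normalization and background correction can affect the level of dim probe sets, and background correction was not varied here. Values repeat exactly between arrays for 6740 of 35556 probe sets, 11 keratins among them. The number of arrays limits the precision.

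The platform annotation gives 1 symbol for 21789 probe sets, several for 1621 and none for 12146, and no keratin symbol stood on a probe set with several. Each of 19938 genes kept its brightest probe set by mean over the arrays. All 52 keratins matched a RefSeq gene (GRCm38.p6), and 0 symbols changed. A limma model of group means (lmFit, eBayes; limma 3.58.1, R 4.3.3) used all 11 arrays, two-sided, with Benjamini-Hochberg adjustment over all genes and a threshold of 0.05. No filter on dim genes was applied. The test was tested on simulated data with known changes. Leukocyte, stromal, squamous, junction and filament lists come from common marker knowledge.

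The members, classes and lists were chosen with earlier results of these data known. Values by array are given for keratins that passed with at least 2-fold and for the 2 brightest of each class, and other lists give up to 3 genes per comparison with the largest change among those that passed, plus Cdh1, Epcam, Vim and Trp63. Krt88, Krt222, Jup, Wt1, Upk3b, Lrrn4 and Cldn18 were named after their values were seen. So were Dsp and Grhl1 in pCP_GC and Evpl, Sprr2d and Ovol1 in pChePS_GC. The alternatives changed the variance prior, groups fitted, normalization, filter on dim genes, probe set summary, array weights, replicate block, threshold, and the arrays left out in turn. Same-numbered arrays of different groups did not deviate together (r from -0.15 to 0.16), so the numbers were not taken as pairs.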

Additional observations from a re-analysis of the deposited data

Results flagged for a closer look

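In groups of 4 arrays, 8 of 104 keratin groups held an array far from the other 3 by Dixon's 95% criterion, where chance gives about 1 in 20. Krt90 read 9.26 on pChePS_GC replicate 4, above 7.86 to 8.07 on the other pChePS_GC arrays. Krt10 read 7.59 on pChePS_GC replicate 1, below 3 arrays that share the identical value 7.78. In NGE, replicate 1 stood high for Krt13 (8.64, others 7.76 to 7.83) and for Krt14 (8.06, the lowest of the others 7.47). NGE replicate 2 stood low for Krt15 (7.32, others 7.61 to 7.67) and for Krt33a (7.10, others 7.51 to 7.58). NGE replicate 3 stood high for Krt16 (7.43, others at most 7.01), and NGE replicate 4 for Krt25 (6.71, others at most 6.61).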

How the results depend on the processing

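For pChePS_GC against NGE, the 16 keratins that passed became 39 (37 lower) with arrays centred on their medians, 32 (29 lower) with array weights, 3 (1 lower) without the dimmest 50% of genes, where fewer keratins are tested, and 4 (1 higher, 3 lower) at an adjusted p under 0.01. They ran from 7 to 24 with each array left out in turn (2 to 3 higher, 5 to 22 lower). For pCP_GC against NGE, the 31 became 19 (18 lower) without the dimmest 25% of genes and 2 (1 lower) without the dimmest 50%. They ran from 27 to 34 with each array left out (1 to 2 higher, 25 to 33 lower), and the number higher was 2 with only the 2 groups compared and 3 with array weights. Between the tumour groups 0 keratins passed under every alternative run. With the replicate number as a block, which the arrays did not bear out as a pairing, 24 keratins passed in pChePS_GC against NGE (21 lower) and 31 in pCP_GC against NGE. The calls of Krt7 against NGE held under every alternative run (adjusted p 0.000113 to 0.0035 in pChePS_GC and 0.000298 to 0.00926 in pCP_GC), and those of Krt78 under each alternative that tested it, since it is not among the 10 keratins left without the dimmest 50% of genes. No called keratin changed sign. Over all keratins and alternatives, 96 results gained and 68 lost a call in pChePS_GC against NGE, and 30 gained and 27 lost one in pCP_GC against NGE. The cause of these moves was not tested. Keratins near the receptor level and Krt8 near the top of the scale are measured least well.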
